A study of Homo sapiens with 44 samples.

Results

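The 40 genes described here encode factors that process 18S ribosomal RNA and assemble the 40S ribosomal subunit. They were taken by name from the 23367 gene rows of a table of read counts, with earlier results of these data known. Their shares set against all genes below are therefore a description and not an independent test. In the human nucleolus, the small subunit processome forms on the nascent precursor RNA around the U3 small nucleolar RNA. Its UTP-A, UTP-B, UTP-C and MPP10 modules bind in stages, and helicases and GTPases then release an early 40S particle that is finished in the cytoplasm. Genes of ribosome assembly are widely described as targets of MYC family transcription factors, and MYCN is the family member amplified in many neuroblastomas.

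The libraries came from IMR5/75, a human neuroblastoma cell line that carries a short hairpin RNA (shRNA) against MYCN under tetracycline control. Both arms carry the hairpin construct and both were held at the boundary of G1 and S phase with thymidine for 18 h. Cells were collected at 0, 3, 6, 8, 10, 12, 14, 16, 18, 20 and 22 h after the thymidine was removed. The Tet plus arm received tetracycline and the Tet minus arm did not, and each of the 22 pairings of an arm with a time has 2 biological replicates, which makes 44 libraries. No library had tetracycline without the MYCN hairpin or with a control hairpin, so a response to less MYCN, to tetracycline itself and to unintended hairpin targets cannot be told apart. From 16 h on, the Tet plus libraries have titles of a different form and carry lane labels 8 and 4, which the 0 to 6 h libraries of both arms also carry, while the Tet minus libraries of those hours carry 3 and 6. Arm and sequencing lane cannot be told apart there, and whether equal lane labels stand for the same run is not given in the sources used here. For this reason the 0 to 14 h and the 16 to 22 h times are described separately.

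Gene counts per library ranged from 10.9 M to 25.3 M (median 20.1 M). Of the neuroblastoma markers, HAND2 reached at least 256 CPM (counts scaled to the size of the library) in each library, while TH and STMN2 stayed at or below 0.265 CPM. With TMM scaling, 5 of the 10 neuroblastoma markers tested were higher in Tet plus at 0 to 14 h, DBH (1.19), CHGB (0.72), CHGA (0.66), ISL1 (0.32) and HAND2 (0.28), and 1, MYCN, was lower. At 16 to 22 h 5 were higher and 1 was lower. The part of these markers in the results below was not tested. The 6 haematopoietic markers summed to at most 4.67 CPM and the 6 epithelial markers to at most 2.58 CPM, with CD3E and KRT19 at 0 in the 44 libraries. The 10 mesenchymal markers summed to 249 to 685 CPM, with medians at 0 to 14 h of 418 CPM in Tet minus and 474 CPM in Tet plus. MYCN itself ran from 970 to 1479 CPM (median 1228) in the 14 Tet minus libraries of 0 to 14 h and from 938 to 1213 CPM (median 1002) in the 14 Tet plus libraries. The ranges overlapped, and the arms were separated, Tet plus below Tet minus, at 6 of the 7 times. The MYCN log2 fold change, Tet plus over Tet minus, was -0.27 ± 0.05 (SE, edgeR adjusted p = 2.71e-05) over 0 to 14 h and -0.26 ± 0.06 (SE, edgeR adjusted p = 0.000787) over 16 to 22 h. At single times it passed the threshold of 0.05 at 12 h (-0.45, edgeR adjusted p = 0.0343) and at 16 h (-0.59, edgeR adjusted p = 0.000826), and it was -0.08 at 0 h and -0.03 at 22 h.

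In cells with the MYCN hairpin induced, the transcripts of the small subunit processome and of 40S assembly were lower as a group. All 40 genes passed the filter on low counts, and averaged over 0 to 14 h each of the 40 was lower in Tet plus, with changes of -51.2% to -10.6% (median -26.8%). The log2 fold changes ran from -1.04 for the RNA helicase DHX37 to -0.16 for KRR1, with a median of -0.45. Over all 14534 genes tested the median was 0.01, and 41.4% passed the same threshold (edgeR quasi-likelihood test, Benjamini-Hochberg adjusted p under 0.05), 21.3% as lower and 20.1% as higher. Of the 40 genes, 35 had a lower log2 fold change than MYCN itself. The p-values here and below that combine times treat the libraries as independent. Within an arm, libraries of the same replicate number shared deviations across times (median r 0.58 in Tet minus, 0.56 in Tet plus). The log2 fold changes are relative to the other transcripts of each library. Scaled to the ERCC spike-in transcripts instead, the 40 genes were again below 0 at 0 to 14 h (median -0.35, with all genes at 0.13), but none passed the threshold, which 48 of all genes did. In bulk RNA, fewer cells with a transcript and less of it per cell cannot be told apart.

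**Figure D1:**
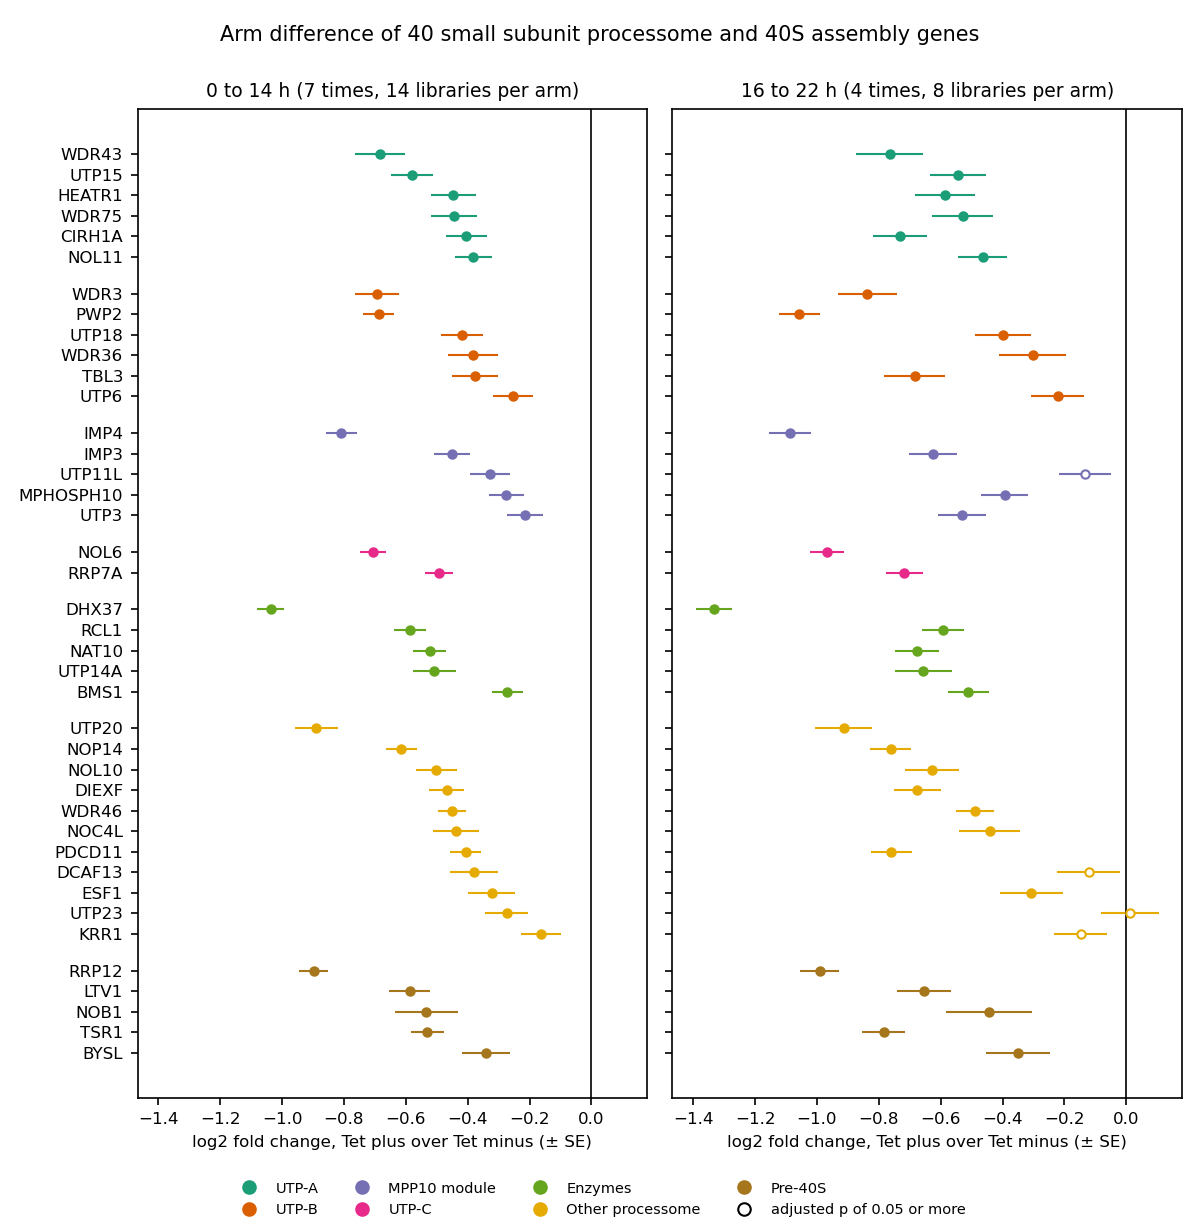
Log2 fold change of each of the 40 genes, Tet plus over Tet minus, with its standard error, averaged over 0 to 14 h (left) and 16 to 22 h (right); genes are grouped by role and sorted by the left panel, and open circles mark an adjusted p of 0.05 or more. On the left the 40 points lie between -1.04 and -0.16, and on the right 4 points are open, the highest at 0.01.

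The sum of the 40 transcripts gives the size of this difference in each library. The summed share of gene counts was 0.449% to 0.602% (median 0.525%) in the 14 Tet minus libraries of 0 to 14 h and 0.331% to 0.453% (median 0.387%) in the 14 Tet plus libraries. Of the Tet plus libraries, only replicate 2 of 14 h was above the lowest Tet minus library. At 16 to 22 h the share was 0.506% to 0.556% in Tet minus and 0.330% to 0.388% in Tet plus, with no overlap.

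MYC family proteins bind the hexamer CACGTG, the canonical E-box, with their partner MAX. RefSeq promoters (GRCh38.p14, 250 bases before to 50 after the annotated start) were at hand for 35 of the 40 genes. MPHOSPH10, DCAF13, NOL10, UTP23 and RRP12 had no entry. CACGTG, which reads the same on both strands, was in 17 of the 35 promoters (48.6%), against 8.77% of all 27305 promoters of this length and 12.7% of the promoters of genes tested here. It was within 50 bases of the start in 16 of the 17. The related hexamers CACGCG and CACATG, searched on both strands and unable by their letters to overlap CACGTG, were in 25.7% and 8.57% of the 35, against 22.7% and 9.96% of the genes tested. By role, CACGTG was in 4 of 5 promoters of the enzymes, 5 of 8 of the other processome proteins, 2 of 4 of the pre-40S factors, 2 of 6 of UTP-A, 2 of 6 of UTP-B, 1 of 4 of the MPP10 group and 1 of 2 of UTP-C. The windows of 30 bases below show the hexamer nearest to the start, in capitals and 5′ to 3′ on the gene's strand, for the genes with the lowest log2 fold changes of each role that hold one.
WDR43 chr2:28894658-28894687 (+ strand): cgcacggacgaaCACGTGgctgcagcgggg
CIRH1A chr16:69132621-69132650 (+ strand): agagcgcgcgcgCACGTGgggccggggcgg
PWP2 chr21:44107388-44107417 (+ strand): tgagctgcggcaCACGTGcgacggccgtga
UTP18 chr17:51260538-51260567 (+ strand): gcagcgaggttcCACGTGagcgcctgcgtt
IMP4 chr2:130342900-130342929 (+ strand): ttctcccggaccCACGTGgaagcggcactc
NOL6 chr9:33473894-33473923 (- strand): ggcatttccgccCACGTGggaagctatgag
DHX37 chr12:124989082-124989111 (- strand): ggagttggtggtctgggaaccCACGTGggc
RCL1 chr9:4792936-4792965 (+ strand): cctgttccaaacCACGTGgacgcgtctggg
UTP20 chr12:101280083-101280112 (+ strand): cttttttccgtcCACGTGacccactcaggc
NOP14 chr4:2963374-2963403 (- strand): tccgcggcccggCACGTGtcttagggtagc
LTV1 chr6:143843354-143843383 (+ strand): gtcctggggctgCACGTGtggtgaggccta
BYSL chr6:41921515-41921544 (+ strand): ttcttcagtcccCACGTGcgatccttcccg
The median log2 fold change at 0 to 14 h was -0.59 for the 17 genes with CACGTG (-1.04 to -0.32) and -0.42 for the 18 genes with a promoter entry and without it (-0.69 to -0.16). This is a description of sequence letters, with no measurement of MYCN binding.

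The UTP-A module, also called t-UTP, is the first to bind the precursor RNA, and its members have been linked to transcription of ribosomal DNA. All 6 of its genes were lower over 0 to 14 h (median -0.45). WDR43, the lowest, had 170.4 to 340.2 CPM (median 238) in Tet minus and 108 to 213 CPM (median 149) in Tet plus libraries over 14 libraries of each arm. The ranges overlapped across times, but at each of the 7 times both Tet plus libraries were below both Tet minus libraries, and the log2 fold change was -0.68 ± 0.08 (SE, edgeR adjusted p = 1.73e-07). NOL11, the least changed of the module, had 198 to 356 CPM (median 277) in Tet minus and 158 to 256 CPM (median 213) in Tet plus libraries. It too was separated at each of the 7 times, with a log2 fold change of -0.38 ± 0.06 (SE, edgeR adjusted p = 9.96e-06). UTP15 changed by -0.58 ± 0.07 (SE, edgeR adjusted p = 1.11e-07). HEATR1, a large HEAT repeat protein, changed by -0.45 ± 0.07 (SE, edgeR adjusted p = 1.90e-05) and WDR75 by -0.45 ± 0.07 (SE, edgeR adjusted p = 2.65e-05). CIRH1A, the human UTP4 and the gene of a childhood liver cirrhosis, changed by -0.40 ± 0.07 (SE, edgeR adjusted p = 1.93e-05). HEATR1, WDR75 and CIRH1A were each separated at 6 of the 7 times.

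UTP-B binds next and contacts U3 and the precursor. Its 6 genes were lower over 0 to 14 h (median -0.40), with a wide spread among them. WDR3, the human UTP12, had 207 to 431 CPM (median 295) in Tet minus and 135 to 271 CPM (median 179) in Tet plus libraries. Levels changed along the course in both arms, and the ranges overlapped across times, yet the arms were separated at each of the 7 times and the log2 fold change was -0.69 ± 0.07 (SE, edgeR adjusted p = 2.06e-08). PWP2 had 144 to 205 CPM (median 175) in Tet minus and 91.9 to 127 CPM (median 112) in Tet plus libraries, so its highest Tet plus library was below its lowest Tet minus library. The log2 fold change of PWP2 was -0.69 ± 0.05 (SE, edgeR adjusted p = 2.87e-11). UTP6 had the smallest change of the module, with 89.7 to 134 CPM (median 102) in Tet minus and 74.7 to 108 CPM (median 89.0) in Tet plus libraries. The arms of UTP6 were separated at 4 of the 7 times, and the log2 fold change was -0.25 ± 0.06 (SE, edgeR adjusted p = 0.00264). UTP18 changed by -0.42 ± 0.07 (SE, edgeR adjusted p = 1.91e-05), WDR36, a gene linked to glaucoma, by -0.38 ± 0.08 (SE, edgeR adjusted p = 0.000487), and TBL3, the human UTP13, by -0.38 ± 0.07 (SE, edgeR adjusted p = 0.000168).

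The MPP10 group joins U3 to the precursor through IMP3 and IMP4, which help the RNAs pair. Its 5 genes were lower over 0 to 14 h (median -0.33). IMP4 had 62.4 to 97.4 CPM (median 79.7) in Tet minus and 36.8 to 50.1 CPM (median 46.5) in Tet plus libraries, with all 14 Tet plus libraries below all 14 Tet minus libraries. Its log2 fold change was -0.81 ± 0.05 (SE, edgeR adjusted p = 2.09e-12). UTP3, the human Sas10, had 35.3 to 50.4 CPM (median 40.5) in Tet minus and 27.8 to 40.0 CPM (median 35.3) in Tet plus libraries. Its ranges overlapped and its arms were separated at 4 of the 7 times. The log2 fold change of UTP3 was -0.21 ± 0.06 (SE, edgeR adjusted p = 0.00409). IMP3 changed by -0.45 ± 0.06 (SE, edgeR adjusted p = 7.60e-07), UTP11L by -0.33 ± 0.06 (SE, edgeR adjusted p = 0.000162) and MPHOSPH10, the MPP10 protein itself, by -0.27 ± 0.06 (SE, edgeR adjusted p = 0.000278). The 2 genes of UTP-C were both separated across all 14 libraries of each arm. NOL6, the human Utp22, had 133 to 185 CPM (median 168) in Tet minus and 87.9 to 127 CPM (median 98.4) in Tet plus libraries and changed by -0.71 ± 0.04 (SE, edgeR adjusted p = 7.15e-13). Its partner RRP7A had 133 to 178 CPM (median 161) in Tet minus and 85.0 to 124 CPM (median 117) in Tet plus libraries and changed by -0.49 ± 0.04 (SE, edgeR adjusted p = 2.00e-09). RRP7A has a near copy in the genome (RRP7B), so its counts are uncertain to that extent.

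The enzymes drive the rearrangements of the particle. DHX37 is the helicase that takes U3 off the precursor, and it was the most lowered of the 40 genes. It had 163 to 234 CPM (median 218) in Tet minus and 78.9 to 117 CPM (median 105) in Tet plus libraries, so the highest Tet plus library was below the lowest Tet minus library. The log2 fold change was -1.04 ± 0.04 (SE, edgeR adjusted p = 3.09e-15), and it passed the threshold at each single time. UTP14A, which activates this helicase, changed by -0.51 ± 0.07 (SE, edgeR adjusted p = 1.42e-06). BMS1, a GTPase, had 181 to 276 CPM (median 217) in Tet minus and 151 to 218 CPM (median 172) in Tet plus libraries and the smallest change of the enzymes, -0.27 ± 0.05 (SE, edgeR adjusted p = 9.15e-05). Its arms were separated at 5 of the 7 times. RCL1, the binding partner of BMS1, changed by -0.59 ± 0.05 (SE, edgeR adjusted p = 9.38e-10). NAT10, which acetylates cytidines of 18S rRNA, had 61.0 to 90.2 CPM (median 75.0) in Tet minus and 40.6 to 67.6 CPM (median 53.7) in Tet plus libraries. The arms of NAT10 were separated at each of the 7 times, and it changed by -0.52 ± 0.05 (SE, edgeR adjusted p = 1.35e-08). BMS1 and UTP14A have near copies (BMS1 pseudogenes, and UTP14C), with which reads may be shared.

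Of the 11 other processome proteins, UTP20 was lowest and KRR1 highest. UTP20, a very large scaffold protein, had 157 to 347 CPM (median 234) in Tet minus and 94.4 to 170.3 CPM (median 122) in Tet plus libraries. It was separated at each of the 7 times, and its log2 fold change was -0.89 ± 0.07 (SE, edgeR adjusted p = 1.24e-10). KRR1 had 26.9 to 49.8 CPM (median 37.8) in Tet minus and 26.1 to 39.8 CPM (median 35.1) in Tet plus libraries, with the arms separated at 3 of the 7 times and the Tet plus mean above the Tet minus mean at 3 h. The log2 fold change of KRR1 was -0.16 ± 0.06 (SE, edgeR adjusted p = 0.0447), and this call was lost with any 1 of 16 of the 28 libraries left out (highest edgeR adjusted p = 0.119, without Tet minus replicate 2 at 14 h) and with DESeq2. NOP14 changed by -0.61 ± 0.05 (SE, edgeR adjusted p = 2.47e-10) and had no overlap between its 14 libraries of each arm. Its partner NOC4L changed by -0.44 ± 0.07 (SE, edgeR adjusted p = 2.82e-05). NOL10 changed by -0.50 ± 0.07 (SE, edgeR adjusted p = 8.17e-07), DIEXF, the human UTP25, by -0.47 ± 0.06 (SE, edgeR adjusted p = 2.40e-07) and WDR46 by -0.45 ± 0.05 (SE, edgeR adjusted p = 1.38e-08). PDCD11, the human Rrp5 and a factor for both subunits, had 239 to 318 CPM (median 294) in Tet minus and 194 to 253 CPM (median 218) in Tet plus libraries and changed by -0.41 ± 0.05 (SE, edgeR adjusted p = 2.51e-07). DCAF13 had 97.0 to 211 CPM (median 135) in Tet minus and 82.2 to 155 CPM (median 101) in Tet plus libraries and changed by -0.38 ± 0.08 (SE, edgeR adjusted p = 0.000242). ESF1 had 40.3 to 89.1 CPM (median 68.4) in Tet minus and 42.7 to 77.8 CPM (median 53.8) in Tet plus libraries and changed by -0.32 ± 0.08 (SE, edgeR adjusted p = 0.00132). UTP23 changed by -0.27 ± 0.07 (SE, edgeR adjusted p = 0.00252). For DCAF13, ESF1 and UTP23 the arms overlapped at 3 of the 7 times.

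The pre-40S factors accompany the particle after the processome. RRP12, a HEAT repeat protein needed for export, had 104 to 153.3 CPM (median 137) in Tet minus and 58.9 to 79.6 CPM (median 72.1) in Tet plus libraries, with no overlap between the arms. Its log2 fold change was -0.90 ± 0.05 (SE, edgeR adjusted p = 8.69e-14). BYSL had 30.8 to 59.6 CPM (median 46.5) in Tet minus and 28.7 to 42.9 CPM (median 36.5) in Tet plus libraries and the smallest change of the group, -0.34 ± 0.08 (SE, edgeR adjusted p = 0.000806), with the arms separated at 4 of the 7 times. LTV1, which leaves the particle in the cytoplasm, changed by -0.59 ± 0.07 (SE, edgeR adjusted p = 6.86e-08). TSR1, which resembles a GTPase, changed by -0.53 ± 0.05 (SE, edgeR adjusted p = 1.08e-08). NOB1, the endonuclease that makes the 3′ end of 18S rRNA, changed by -0.53 ± 0.10 (SE, edgeR adjusted p = 0.000154) and had the largest standard error of the 40 genes in this comparison.

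**Figure D2:**
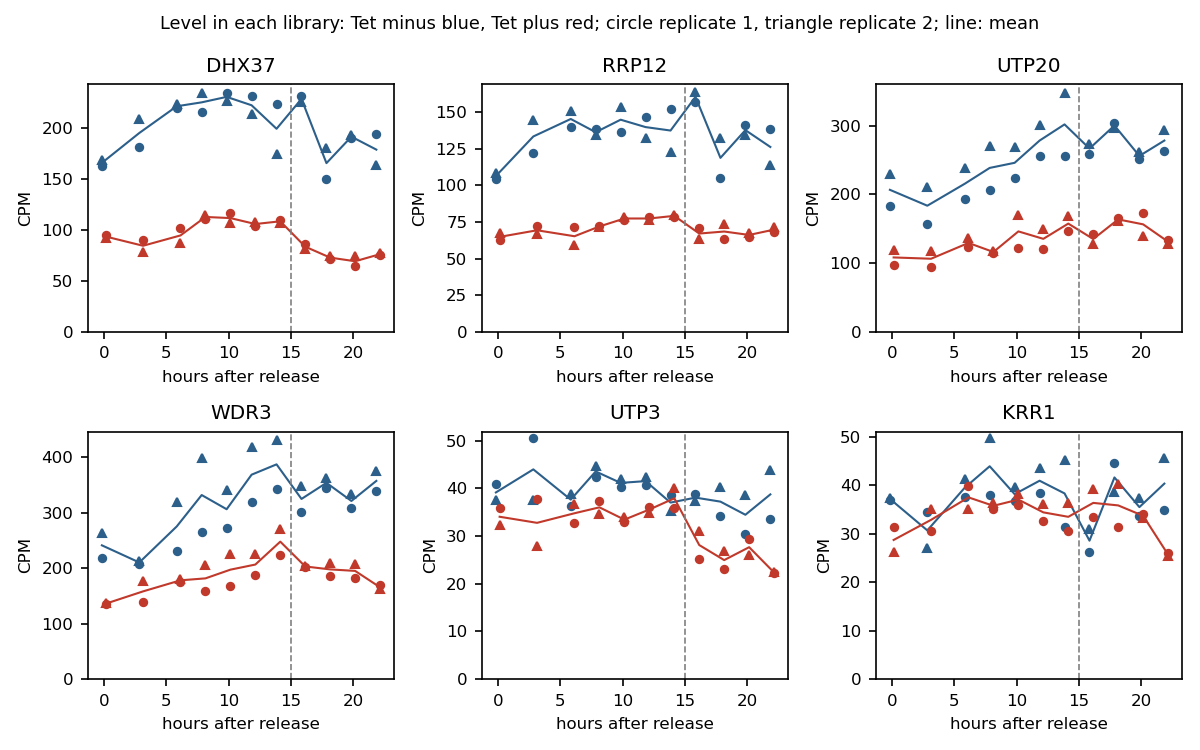
Level of 6 of the genes (CPM, linear axes from 0) in each library against hours after release, with Tet minus in blue, Tet plus in red, circles and triangles for replicates 1 and 2, and lines through the means of 2 libraries. DHX37 and RRP12 are separated throughout, WDR3 is higher at 14 h than at 0 h in both arms, UTP20 is separated at each time up to 14 h, and UTP3 and KRR1 overlap at several times up to 14 h. The dashed line lies between 14 and 16 h, and to its right the arms carry different lane labels.

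The separation of the libraries can also be counted without a model. Both Tet plus libraries were below both Tet minus libraries in 35 of the 40 genes at 0 h (21.4% of all genes tested), 31 at 3 h (19.2%), 36 at 6 h (22.9%) and 39 at 8 h (22.6%). The counts were 35 at 10 h (23.4%), 35 at 12 h (22.8%) and 29 at 14 h (20.1%). In 22 genes this held at each of the 7 times, against 4.12% of all genes, and in 38 genes it held at 4 or more times, against 17.3%. In 7 genes, PWP2, IMP4, NOL6, RRP7A, DHX37, NOP14 and RRP12, all 14 Tet plus libraries were below all 14 Tet minus libraries, against 1.09% of all genes. The group mean was lower in Tet plus at each of the 7 times in 38 genes, and at 6 times in UTP3 and KRR1.

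At single times, with 2 libraries per arm, fewer genes passed the threshold, and none passed as higher. The edgeR count of lower genes was 12 at 0 h (1% of all genes tested were lower), 10 at 3 h (1.7%), 16 at 6 h (4.44%) and 18 at 8 h (2.06%). It was 14 at 10 h (2.04%), 14 at 12 h (2.57%) and 11 at 14 h (3.34%). Of all genes tested, 0.564% passed as higher at 0 h, 1.02% at 3 h, 2.65% at 6 h, 1.38% at 8 h, 1.36% at 10 h, 1.62% at 12 h and 2.04% at 14 h. With replicate number as a block within each time, the counts were 27, 25, 26, 33, 26, 29 and 28 at these times. In those blocked fits 5.15%, 5.96%, 11.7%, 7.49%, 6.24%, 8.13% and 9.32% of all genes were lower. The median log2 fold change stayed between -0.56 at 8 h and -0.43 at 3 h and at 14 h. With ERCC scaling it was 0.24 at 6 h, with 9 of the 40 genes below 0, and -0.08 at 12 h, with 25 below 0. The medians of all genes under ERCC scaling were 0.70 and 0.47 at these 2 times. Relative to them the 40 genes stood at -0.47 and -0.55. PWP2, IMP4, NOL6, DHX37, NOP14, UTP20 and RRP12 passed at each of the 7 times, and 18 genes passed at none of them. DHX37 was lowest at 6 h (-1.23, edgeR adjusted p = 7.67e-07) and nearest to 0, among these times, at 0 h (-0.83, edgeR adjusted p = 0.000427). A test of whether the arm difference changed over the 7 times called none of the 40 genes, by edgeR or by DESeq2, and none at an unadjusted p under 0.05, while 0.0138% of all genes were called. Its smallest p-values were those of DHX37, NOL6 and NAT10 (edgeR adjusted p = 1 for each).

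The counts at single times rest on few libraries. Leaving out 1 library lowered the count by more than 1.5 times in the following cases. At 0 h it was 2 without Tet minus replicate 2 and 3 without any of the other 3 libraries of that time. At 3 h it was 4 without Tet minus replicate 2 and 3 without Tet plus replicate 2. At 6 h it was 9 without Tet minus replicate 2 and 5 without Tet plus replicate 2. At 8 h it was 5 without Tet minus replicate 2, 5 without Tet plus replicate 1 and 11 without Tet plus replicate 2. At 10 h it was 6 without Tet minus replicate 2 and 4 without Tet plus replicate 1. At 12 h it was 9 and 6 without Tet minus replicates 1 and 2, and 4 without Tet plus replicate 1. At 14 h it was 6 without Tet minus replicate 2, and 3 and 7 without Tet plus replicates 1 and 2. Averaged over 0 to 14 h, the count stayed at 39 to 40 with any of the 28 libraries left out.

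**Figure D3:**
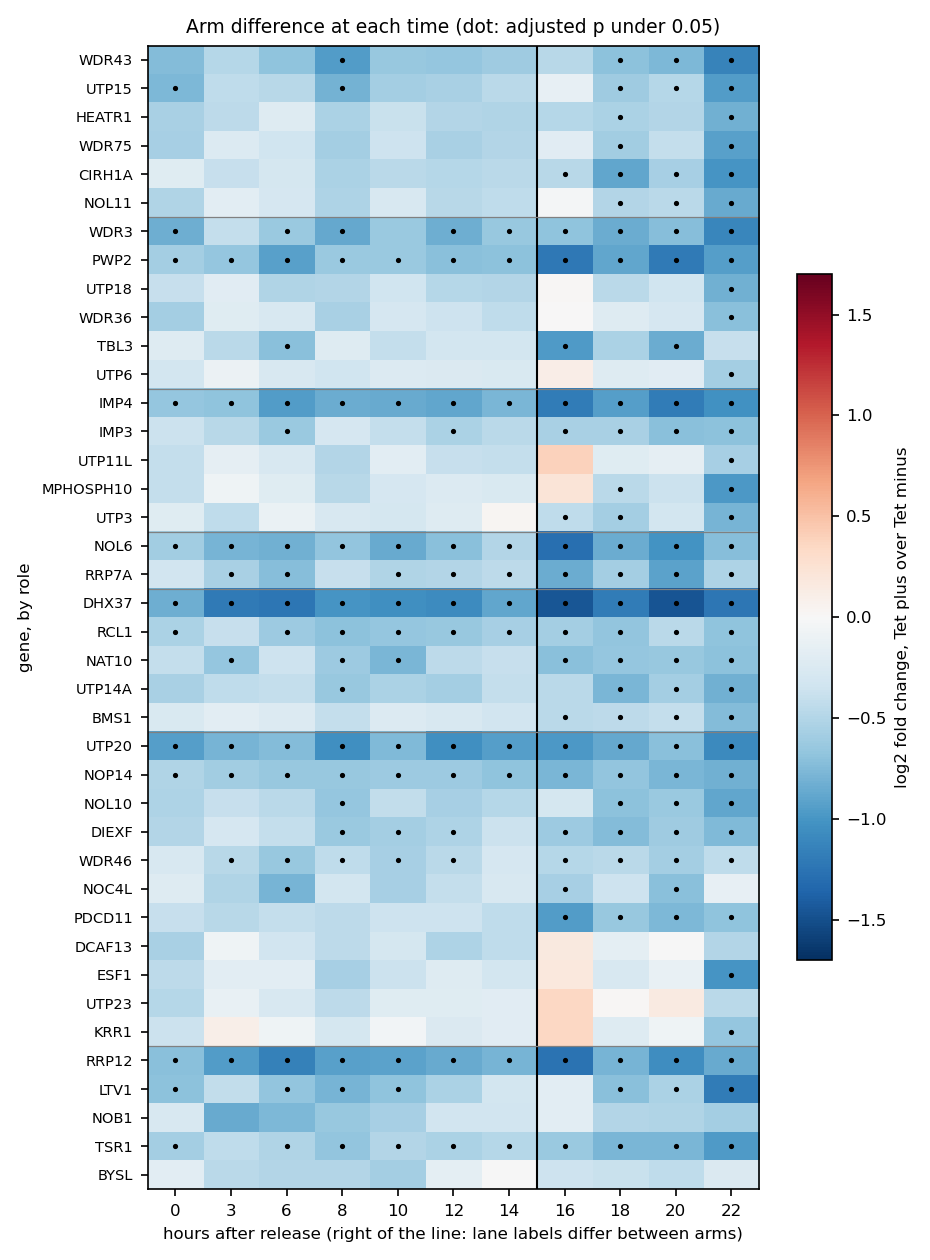
Log2 fold change, Tet plus over Tet minus, of each of the 40 genes (rows, by role) at each of the 11 times (columns); blue is lower in Tet plus, and a dot marks an adjusted p under 0.05. Right of the black line, where the arms carry different lane labels, more cells carry a dot, and 9 genes lie above 0 at 16 h.

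At 16 to 22 h the genes were again lower in Tet plus relative to the other transcripts. Of the 40, 36 passed as lower and none as higher, with a median of -0.61 and a range of -1.33 (DHX37) to 0.01 (UTP23). Of all genes tested, 53.1% passed, 26.8% as lower and 26.3% as higher, with a median of 0.02. Scaled to the ERCC transcripts, all 40 genes were instead higher (median 3.79), with the median of all genes at 4.40, so the genes stood at -0.62 relative to it. ERCC transcripts made up 0.0543% to 0.376% of the late Tet plus libraries and 1.13% to 3.43% of the late Tet minus libraries. Small nucleolar RNAs made up 0.935% to 2.41% of the late Tet plus and 0.289% to 0.713% of the late Tet minus libraries. The part of these shares in the late differences was not tested.

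DHX37 had 151 to 231 CPM (median 192) in Tet minus and 64.5 to 85.8 CPM (median 74.8) in Tet plus libraries at 16 to 22 h (8 libraries per arm). The arms did not overlap, and the change was -1.33 ± 0.06 (SE, edgeR adjusted p = 7.46e-16). PWP2 had 144 to 218 CPM (median 189.5) in Tet minus and 83.4 to 102 CPM (median 88.1) in Tet plus libraries, again without overlap, and changed by -1.06 ± 0.07 (SE, edgeR adjusted p = 6.31e-13). IMP4 changed by -1.09 ± 0.07 (SE, edgeR adjusted p = 5.57e-13), NOL6 by -0.97 ± 0.06 (SE, edgeR adjusted p = 1.08e-13) and RRP12 by -0.99 ± 0.06 (SE, edgeR adjusted p = 6.28e-13). UTP3, separated at 4 of the 7 earlier times, was separated at each of the 4 late times and changed by -0.53 ± 0.08 (SE, edgeR adjusted p = 2.60e-06). Below 0 but not past the threshold were UTP11L at -0.13 ± 0.08 (SE, edgeR adjusted p = 0.188), DCAF13 at -0.12 ± 0.10 (SE, edgeR adjusted p = 0.319) and KRR1 at -0.15 ± 0.09 (SE, edgeR adjusted p = 0.153). UTP23 had 32.2 to 53.6 CPM (median 43.4) in Tet minus and 32.6 to 53.1 CPM (median 43.5) in Tet plus libraries and a log2 fold change of 0.01 ± 0.09 (SE, edgeR adjusted p = 0.921). The late calls of 3 genes were lost with single libraries left out. UTP6, at -0.22 ± 0.09 (SE, edgeR adjusted p = 0.0324), lost its call without replicate 2 of Tet minus at 16, 18, 20 or 22 h, replicate 1 of Tet plus at 16, 18 or 20 h, or replicate 2 of Tet plus at 22 h (edgeR adjusted p = 0.0599 to 0.118), and also with RLE size factors, DESeq2 and the stricter filter. ESF1, at -0.31 ± 0.10 (SE, edgeR adjusted p = 0.0133), lost it without Tet minus replicate 2 at 22 h (edgeR adjusted p = 0.0531). WDR36, at -0.30 ± 0.11 (SE, edgeR adjusted p = 0.0215), lost it without replicate 2 of Tet minus at 16, 20 or 22 h or of Tet plus at 20 h (highest edgeR adjusted p = 0.0588).

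At the single late times, the edgeR count of lower genes was 21 at 16 h (14% of all genes tested), 28 at 18 h (11.2%), 26 at 20 h (13.7%) and 34 at 22 h (16.3%). With ERCC scaling all 40 were instead higher at each of these times, with the medians of all genes at 4.56, 4.25, 4.29 and 4.51. Relative to those medians the 40 genes stood at -0.45, -0.58, -0.57 and -0.81. In the edgeR fit with TMM scaling and no block none was called higher, against 12.9%, 7.53%, 10.2% and 12.1% of all genes. However, UTP11L (0.39, edgeR adjusted p = 0.0271) and UTP23 (0.35, edgeR adjusted p = 0.0361) passed as higher at 16 h with the replicate block by time. In that fit 20.6% of all genes were higher at 16 h. At 16 h 9 genes lay above 0, UTP6, UTP18, WDR36, MPHOSPH10, UTP11L, DCAF13, KRR1, ESF1 and UTP23. At 22 h all 40 lay below 0 with TMM scaling. Both Tet plus libraries were below both Tet minus libraries in 28 genes at 16 h (31% of all genes), 38 at 18 h (30.7%), 35 at 20 h (32.7%) and 38 at 22 h (31.4%). At 18 h the edgeR count was 16 without Tet minus replicate 2 or Tet plus replicate 1. At 20 h it was 15 without Tet minus replicate 2 and 16 without Tet plus replicate 1.

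The late arm difference was compared directly with the earlier one. It was lower by the edgeR test in 10 of the 40 genes and higher in none, while 12.3% of all genes were lower and 8.24% higher. At an unadjusted p under 0.05, in either direction, there were 13 of the 40, or 32.5%, against 32.5% of all genes. PDCD11 went from -0.41 to -0.76, a difference of -0.35 ± 0.08 (SE, edgeR adjusted p = 0.00255). PWP2 differed by -0.37 ± 0.08 (SE, edgeR adjusted p = 0.00184) and DHX37 by -0.30 ± 0.07 (SE, edgeR adjusted p = 0.00361). The others were CIRH1A, UTP3, IMP4, NOL6, TSR1, BMS1 and RRP7A, at -0.33 to -0.23. With ERCC scaling all 40 genes were instead higher (median 4.19). The median of all genes was then 4.27, so the 40 genes stood at -0.08 relative to it. With offsets for GC content, 7 of the 40 genes were lower, against 13.5% of all genes with a GC value. Only PDCD11, UTP3 and BMS1 of the 10 above held their call (edgeR adjusted p = 0.0508 to 0.382 for the other 7). Across the 40 genes, r of GC content with this difference was -0.44. BMS1 and TSR1 lost their calls with RLE size factors, DESeq2 and the stricter filter. Leaving out single libraries ended the call of TSR1 in 26 cases, BMS1 in 24, CIRH1A in 13, RRP7A in 9, UTP3 in 3 and IMP4 in 1 of the 44. With the replicate block by time, 13 genes were lower (18.8% of all genes in that fit) and 2, DCAF13 (0.25, edgeR adjusted p = 0.00993) and UTP23 (0.28, edgeR adjusted p = 0.0108), were higher (15.9%). The count of lower genes was 5 without Tet minus replicate 2 at 18 h, 6 without Tet minus replicate 2 at 20 h and 6 without Tet plus replicate 2 at 16 h. The arms share lane labels at each time up to 14 h and at none after it, so time and lane cannot be told apart in this comparison.

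At some times, but not at others, the arm difference moved with the base composition of the transcripts. GC content, taken from GENCODE v29 transcripts, ran from 35.4% (ESF1) to 64.8% (NOC4L) over the 40 genes. Across the 40 genes, Pearson's r of GC content with the log2 fold change was -0.67 at 3 h, -0.72 at 6 h, -0.53 at 10 h, -0.70 at 16 h and -0.70 at 20 h, but 0.23 at 0 h, 0.07 at 8 h and 0.36 at 22 h. It was -0.26 at 12 h, -0.18 at 14 h and -0.38 at 18 h. For the averaged differences it was -0.39 at 0 to 14 h and -0.51 at 16 to 22 h, against 0.02 and -0.08 over all genes with a value. Over the 13839 genes tested that have a GC value, r was 0.29 at 0 h and 0.22 at 8 h. It was -0.20 at 6 h, -0.38 at 16 h and 0.26 at 22 h. These genes share the same libraries and are not independent replicates. The 9 genes above 0 at 16 h had a GC content of 35.4% to 45.9% (median 41.2%), against 38.7% to 64.8% (median 51.1%) in the other 31. With offsets for GC content, chosen after seeing the data, the 40 genes were again all lower at 0 to 14 h and 37 were lower at 16 to 22 h (24.5% and 28.2% of all genes with a GC value). With these offsets the counts were 25 at 6 h, 29 at 8 h, 22 at 12 h and 23 at 14 h, while 6.28%, 3.9%, 4.62% and 6.73% of all genes with a GC value were lower.

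**Figure D4:**
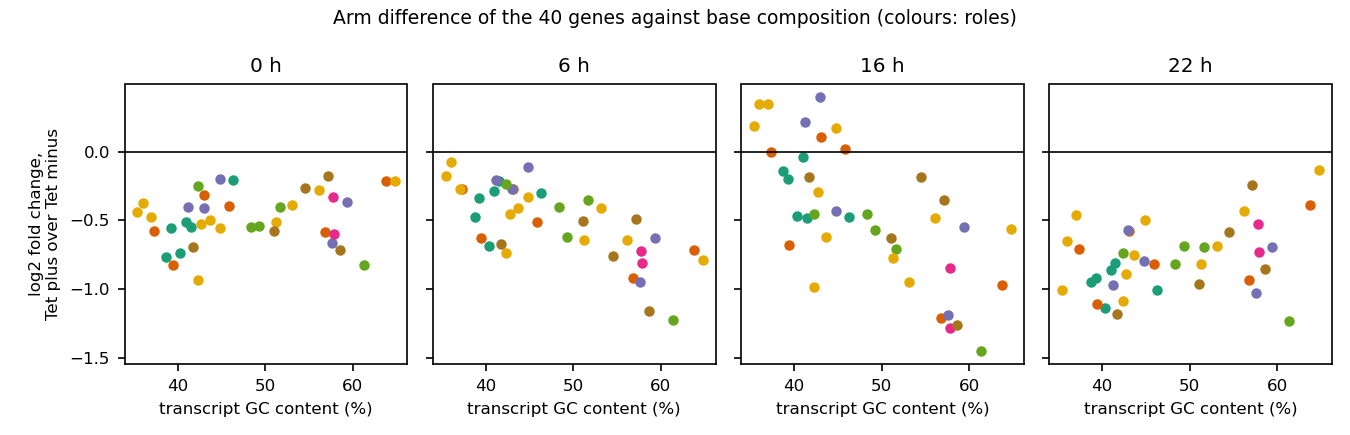
Log2 fold change, Tet plus over Tet minus, of the 40 genes against the GC content of their transcripts at 0, 6, 16 and 22 h, coloured by role as in the plot of arm differences by role. At 6 and 16 h the points fall from left to right, and at 0 and 22 h they do not.

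Along the course, the median level of the 40 transcripts was above that of 0 h up to 14 h in both arms, and few of the genes passed a test of change. In Tet minus the median log2 change from 0 h was 0.01 at 3 h, 0.16 at 6 h, 0.23 at 8 h, 0.27 at 12 h and 0.25 at 14 h. In Tet plus it was 0.04 at 3 h, 0.14 at 6 h, 0.15 at 8 h, 0.23 at 12 h and 0.30 at 14 h. In Tet minus 16 genes were highest at 14 h and 36 were lowest at 0 or 3 h, and in Tet plus 25 were highest at 14 h. The range of group means over 0 to 14 h had a median of 0.45 log2 units in Tet minus (0.14 for NOP14 to 0.87 for WDR3) and 0.39 in Tet plus (0.08 for NOP14 to 0.86 for WDR3). The G2 and M phase genes CCNB1 and PLK1 ranged over 2.04 and 2.47 log2 units in Tet minus, highest at 8 and 10 h.

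The test of change over 0 to 14 h called 4 of the 40 genes in Tet minus, WDR3 (edgeR adjusted p = 0.0105), NOL11 (edgeR adjusted p = 0.0323), DHX37 (edgeR adjusted p = 0.0338) and DCAF13 (edgeR adjusted p = 0.0339), against 14.5% of all genes. In Tet plus it called RCL1 (edgeR adjusted p = 0.0269) and WDR3 (edgeR adjusted p = 0.0427), against 10.4% of all genes. WDR3 went in Tet minus from 219 and 263 CPM at 0 h to 343 and 431 CPM at 14 h, and in Tet plus from 135 and 136 CPM to 224 and 271 CPM. DCAF13 went in Tet minus from 105 and 97.0 CPM at 3 h to 155 and 211 CPM at 14 h. ESF1, the third of the widest ranges in Tet minus, had 58.3 and 40.3 CPM at 3 h and 80.3 and 87.1 CPM at 8 h and was not called. With an additive replicate block 17 genes were called in Tet minus and 15 in Tet plus, against 34.3% and 25.9% of all genes in those fits. Without 1 library the Tet minus count was 1 (0 h, replicate 1), 2 (6 h, replicate 1, or 12 h, replicate 2) or 10 (14 h, replicate 1). The Tet plus count was 0 without replicate 1 at 0, 8 or 14 h or replicate 2 at 14 h. It was 1 without replicate 2 at 0 h, replicate 1 at 3 h, or either replicate at 6 or 12 h.

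Sequencing lanes differ between times as well, and pairs of times with the same lane labels were therefore set against each other. From 0 to 6 h in Tet minus, RRP12 (0.45, edgeR adjusted p = 0.0486) and DHX37 (0.42, edgeR adjusted p = 0.0489) passed as higher, against 1.86% of all genes, and neither call held without any 1 of the 4 libraries. In Tet plus none passed from 0 to 6 h by edgeR, against 2.5% of all genes. At an unadjusted p under 0.05 there were 6 of the 40, or 15%, against 15.9% of all genes. With the replicate block 5 passed, against 8.59% of all genes, and without Tet plus replicate 2 at 0 h 1 passed. From 8 to 12 h none passed in Tet minus or Tet plus, against 0.833% and 0.22% of all genes. At an unadjusted p under 0.05 there were 0 and 1 of the 40, against 6.67% and 5.37% of all genes. From 14 to 22 h in Tet minus none passed, against 0.44%, and 0 did at an unadjusted p under 0.05, against 6.80%. From 16 to 22 h in Tet plus 5 genes fell, MPHOSPH10 (-0.78, edgeR adjusted p = 0.00251), CIRH1A (-0.73), LTV1 (-0.72), ESF1 (-0.70) and UTP11L (-0.66), against 4.65% of all genes. The count was 14 with the replicate block, against 9.8% of all genes lower in that fit, and 0, 2 and 0 without replicate 2 at 16 h, replicate 1 at 22 h and replicate 2 at 22 h. Pearson's r with GC content was 0.65 across the 40 genes in this comparison and 0.36 across all genes with a value.

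Some cell cycle markers also differed between the arms. The S phase markers CCNE2, MCM5, CDC6 and RRM2 summed to 707 to 1137 CPM (median 881) in Tet minus and 469 to 1033 CPM (median 653) in Tet plus at 0 to 14 h, and to 845 to 1110.5 CPM and 405 to 566 CPM at 16 to 22 h. The G2 and M markers CCNB1, PLK1, CDC20 and AURKA summed at 0 to 14 h to 337 to 1607 CPM (median 1034) in Tet minus. In Tet plus they summed to 261 to 1528 CPM (median 818). At 16 to 22 h the sums were 435 to 799 CPM (median 512) and 274 to 533 CPM (median 323). Of these 4, only CCNB1 passed as lower at 0 to 14 h, and all 4 did at 16 to 22 h (21.3% and 26.8% of all genes). Of the S phase markers, RRM2 did not pass at 0 to 14 h (edgeR adjusted p = 0.0677). The part of these markers in the arm difference of the 40 genes was not tested.

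Other genes of ribosome assembly gave a comparison. Of all genes tested, 21.3% were lower and 20.1% higher at 0 to 14 h. Of 26 further factors for 18S rRNA, among them the box C/D proteins, 24 were lower at 0 to 14 h and none higher (median -0.35). RRP9, a U3 protein, was lowest at -0.85 ± 0.06 (SE, edgeR adjusted p = 7.82e-12), followed by DIMT1 at -0.73 and EMG1 at -0.71. At the other end were RIOK3, a kinase, at 0.09 ± 0.05 (SE, edgeR adjusted p = 0.115), TSR2 at -0.12 (edgeR adjusted p = 0.0226) and C16orf42, the human TSR3, at -0.14 (edgeR adjusted p = 0.0357). Of 36 factors for the 60S subunit 35 were lower (median -0.49). Of 31 tested ribosomal proteins of the 40S subunit 11 were lower and none higher (median -0.15), and single values there are uncertain because these genes have many processed copies. The promoters with CACGTG were 7 of 22, 10 of 29 and 2 of 25 in these lists. No test compared the lists with the 40 genes.

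Counts behind the 40 genes were 251 to 11638 per gene and library (median 1640.5). The strand setting of the counting is not given in the sources used here. In GENCODE v29, 20 of the 40 genes overlap a gene on the opposite strand, among them IMP4, KRR1, RRP12 and UTP23, so reads may be shared with those partners. NOL11, TSR1 and WDR43 hold small nucleolar RNAs.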

How the data were processed

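RNA was counted in 44 libraries, 2 biological replicates for each of 22 groups (arm by time). Per the labels' protocols, ERCC spike-in mix was added, ribosomal RNA was depleted and directional libraries were made. The deposited values are raw read counts for each gene. TopHat2 2.0.5, HTSeq and hg19 are named in the submitters' processing notes without their order. Which annotation, HTSeq version and strand setting the authors chose is not given in the sources used here. The table holds 23367 gene rows (3929 at 0 in each library). Its 92 rows of ERCC transcripts entered neither library sizes nor tests.

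The edgeR quasi-likelihood test (glmQLFit and glmQLFTest, edgeR 4.0.16, limma 3.58.1, R 4.3.3) was run on these counts with TMM scaling and the filterByExpr filter (minimum count 10, minimum total 15), in 1 model of 22 group means with 22 residual degrees of freedom. P-values were adjusted by Benjamini-Hochberg over the 14534 genes kept (threshold 0.05). Standard errors (SE) were taken as log2 fold change over the root of the F statistic. CPM are counts scaled to TMM library sizes, with a prior count of 2 for log2 CPM. Arm differences are averages over times with equal weight. Library ranges cover the 14 or 8 libraries of an arm.

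The members, role groups and lists were chosen with earlier results of these data known. Named in full were the lowest and highest log2 fold change of each role at 0 to 14 h, the 3 widest courses in Tet minus and the 3 smallest p-values of the tests for dependence on time and for the late against the early arm difference. Other lists are described by counts and medians.

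Same-numbered libraries of the arms deviated together from their group means at each time (lowest r 0.385 at 0 to 14 h and 0.271 at 16 to 22 h), so the numbers were taken to pair the arms, and fits with a replicate block are given where they move a count by more than 1.5 times. Within an arm, same-numbered libraries of different times also shared deviations (median r 0.58 within Tet minus, 0.56 within Tet plus), while p-values that combine times treat the libraries as independent. No replicate pair was identical, and each differed beyond sampling error (a chi-square of 8.48 to 48.8 for each gene on average).

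Alternatives were RLE size factors, ERCC scaling, DESeq2 1.42.0, other filters, replicate blocks, fewer libraries and leaving out each library. GC offsets were added after seeing the data. The steps were also run on simulated counts, drawn independently for each library. Those counts lack the shared deviations of same-numbered libraries, so they cannot check the p-values that combine times. Sequences are from RefSeq (GRCh38.p14), and 35 of 40 members matched. No coordinates were read in hg19.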

Additional observations from a re-analysis of the deposited data

Results flagged for a closer look

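The arm difference of 10 of the 40 genes differed between 0 to 14 h and 16 to 22 h by a test of that difference (edgeR adjusted p under 0.05). All 10 were lower at the late times, while 12.3% of all genes tested were lower and 8.24% higher. At an unadjusted p under 0.05, in either direction, the shares were 32.5% of the 40 genes and 32.5% of all genes. With ERCC scaling all 10 were instead higher. The late value minus the early value, on the log2 scale, was -0.37 ± 0.08 (SE, edgeR adjusted p = 0.00184) for PWP2, -0.35 ± 0.08 (SE, edgeR adjusted p = 0.00255) for PDCD11 and -0.33 ± 0.11 (SE, edgeR adjusted p = 0.0342) for CIRH1A. It was -0.32 ± 0.10 (SE, edgeR adjusted p = 0.0211) for UTP3, -0.30 ± 0.07 (SE, edgeR adjusted p = 0.00361) for DHX37, -0.28 ± 0.08 (SE, edgeR adjusted p = 0.0189) for IMP4 and -0.26 ± 0.07 (SE, edgeR adjusted p = 0.00713) for NOL6. It was -0.25 ± 0.09 (SE, edgeR adjusted p = 0.04) for TSR1, -0.24 ± 0.08 (SE, edgeR adjusted p = 0.042) for BMS1 and -0.23 ± 0.07 (SE, edgeR adjusted p = 0.0305) for RRP7A. With offsets for GC content 3 of the 10 held their call, and 6 of the 10 lost it with at least 1 single library left out, TSR1 with 26, BMS1 with 24 and CIRH1A with 13 of the 44. The arms share lane labels up to 14 h and not after it, so time and lane cannot be told apart. No group had enough libraries for a check of single outlying values.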

How the results depend on the processing

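The count of 40 lower genes at 0 to 14 h was 39 or 40 under each alternative run except ERCC scaling (0), KRR1 being the gene lost, and 39 to 40 with 1 library left out. At 16 to 22 h the count of 36 was 33 to 36 with 1 library left out. ERCC scaling gave 0 lower genes in each arm comparison and 40 higher at 16, 18, 20 and 22 h, in their average and in the late minus early difference, and 0 called genes in both courses, in Tet minus 6 against 0 h and in Tet plus 22 against 16 h. Under it the reversed log2 fold changes at 16 to 22 h were DHX37 3.07, BMS1 3.90, IMP4 3.31, UTP3 3.86, UTP20 3.51, KRR1 4.21, RRP12 3.41, BYSL 4.12, WDR43 3.62, NOL11 3.91, WDR3 3.55, UTP6 4.20, NOL6 3.47, RRP7A 3.69, DCAF13 4.25, ESF1 4.11, NAT10 3.73, PWP2 3.37, PDCD11 3.67, UTP11L 4.24, CIRH1A 3.68 and TSR1 3.61. The reversed late minus early differences were CIRH1A 3.95, PWP2 3.90, IMP4 3.97, UTP3 3.95, NOL6 4.03, RRP7A 4.04, BMS1 4.07, DHX37 3.94, PDCD11 3.94 and TSR1 4.03. The medians of all genes under ERCC scaling were 4.40 at 16 to 22 h and 4.27 in late minus early.

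The additive replicate block gave 25, 22, 32, 27 and 26 lower genes at 0, 3, 8, 12 and 14 h (4.15%, 4.7%, 6.4%, 6.56% and 8.21% of all genes). It gave 2 higher at 16 h (19.4%) and 2 higher in late minus early (14.4%). It called 17 and 15 in the Tet minus and Tet plus courses (34.3% and 25.9%). It also called 5 in Tet plus 6 against 0 h (8.59%) and 14 as lower in Tet plus 22 against 16 h (9.8%). The replicate block by time gave 27, 25, 26, 33, 26, 29 and 28 lower at 0 to 14 h (5.15% to 11.7% of all genes). It gave 2 higher at 16 h (20.6%) and in late minus early (15.9%). The blocks moved no other count by more than 1.5 times. GC offsets gave 25, 29, 22 and 23 at 6, 8, 12 and 14 h (6.28%, 3.9%, 4.62% and 6.73% of all genes with a GC value). With the block by time they gave 32, 32, 36, 37, 33, 32 and 31 lower at 0 to 14 h. Of all genes with a GC value, 7.23%, 8.15%, 14.2%, 10.4%, 8.06%, 11.6% and 13.6% were lower in those fits. In late minus early the offsets with this block gave 18 lower and 1 higher, against 19.4% and 17.5%. UTP23 at 16 to 22 h went from 0.01 to -0.14 with GC offsets and -0.14 with both, and lay between -0.0420 and 0.0595 with 1 library left out, below 0 in 7 cases.

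With no low-count filter, late minus early gave 5 lower, the courses 2 and 0, and Tet minus 6 against 0 h gave 0. A mean log2 CPM of at least 3 gave 1 higher at 16 h and in late minus early. RLE gave 1 in the Tet plus course and 0 in Tet minus 6 against 0 h. DESeq2 gave 10 and 6 in the courses. The 28 libraries of 0 to 14 h alone gave 4 at 0 h and 0 in both courses. The causes were not tested. Shares of all genes are not given for these fits, for those with 1 library left out or for the higher calls with ERCC scaling. Their counts therefore show only how the calls moved with the processing. In the edgeR fit with TMM scaling and no block, 14.5% and 10.4% of all genes were called in the Tet minus and Tet plus courses. Leaving out 1 library gave 2 to 3 lower at 0 h, 3 to 11 at 3 h, 5 to 14 at 6 h, 5 to 16 at 8 h, 4 to 11 at 10 h, 4 to 10 at 12 h, 3 to 11 at 14 h, 15 to 18 at 16 h, 16 to 23 at 18 h, 15 to 23 at 20 h and 29 to 33 at 22 h. It gave 5 to 10 lower and 0 to 1 higher in late minus early, 1 to 10 and 0 to 2 in the courses, 0 in Tet minus and 0 to 1 in Tet plus 6 against 0 h, and 0 to 4 in Tet plus 22 against 16 h. In these fits the lone library of a group is assumed to vary like the other groups.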
